A study of Mus musculus with 2 samples.

Results

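Notch signalling passes between cells that touch. A ligand in the membrane of the sending cell pulls on a receptor in the membrane of the receiving cell, the receptor is cut by ADAM proteases and by gamma-secretase, and its freed intracellular part joins the DNA-binding protein RBPJ to switch on target genes. In muscle the pathway is known for keeping satellite cells quiescent, and in vessels for arterial identity and for the contact between endothelium and mural cells. The 10 genes described here were taken by name, of 32287 features in the count matrix. They are the receptors Notch1, Notch2, Notch3 and Notch4, the ligands Jag1, Dll1 and Dll4, and the transcriptional repressors Hes1, Hey1 and Heyl, which are commonly used as target genes.

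The levels came from tibialis anterior and gastrocnemius muscle of S100GFP-tg mice, labelled as 2 months old, taken 7 days after a crush of the sciatic nerve (7 dpi). In these mice green fluorescent protein (GFP) is made where the S100B promoter is active, and viable cells were sorted into a GFP+ and a GFP- fraction. Each fraction was sequenced as 1 droplet library, and the number of animals behind a library is not certain. Only counts of the GFP+ library were analysed here, so every level below is that of cells that passed the GFP+ sort, no other condition was compared, and no test or p-value was possible. The labels name no genetic change beside the reporter.

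The GFP+ library held 36400 barcodes and 170648616 unique molecular identifiers (UMIs), and 18528 barcodes had at least 2000 UMIs, more than 200 genes and under 10% mitochondrial counts. A barcode was given a class when it held at least 4 UMIs over at least 2 of 10 marker genes of that class, and at least 2 times the UMIs of any other class's list. This gave 78 endothelial cells, 109 mural cells (vascular smooth muscle and pericytes), 237 satellite cells (muscle stem cells and their progeny), 112 Schwann cells, 4808 stromal cells and 10011 myeloid cells, and 3173 barcodes were in no class. The median UMIs per cell ran from 3522.5 in stromal cells to 8235 in satellite cells, with 4840 in endothelial, 6816 in mural, 7267.5 in Schwann and 7957 in myeloid cells. Marker lists that the gate did not use were each highest in the class they mark, for example Pecam1, Cd93, Sox17 and their list at 3656 CPM in endothelial cells and 432.9 CPM in mural cells, the next class. CPM stands for UMIs per 1000000 UMIs of the class, and the range after a CPM is an exact Poisson 95% interval, which covers counting error only. Of the barcode sequences, 372 also occur in the GFP- library, among them 137 of the cells given a class.

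Each member was set against the mean CPM of the other 5 classes and called high at 2-fold or more with at least 10 UMIs, or low at 0.5-fold or less, provided it had at least 100 UMIs in all. Dll1 and Dll4 had fewer UMIs than that, so 8 members could be called. Of their 48 pairs with a class, 11 were called high and 22 low. In endothelial cells 4 members were called high, Notch1, Notch4, Hes1 and Hey1, where 7.5% of all 15107 genes were, and 3 were called low against 31.4% of all genes. In mural cells 4 members were called high, Notch3, Jag1, Hes1 and Heyl, against 6.84% of all genes, and 0 were low against 26.6%. Satellite cells had Notch3 and Heyl called high against 6.59% of all genes, and 2 members low against 36.6%. Myeloid cells had 1 member called high, Notch2, against 15% of all genes, and 6 low against 29.3%. No member was called high in Schwann cells, where 11.4% of all genes were, or in stromal cells, where 11.2% were, while 5 were low in Schwann cells against 25.1% and 6 in stromal cells against 16.9%.

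**Figure D1:**
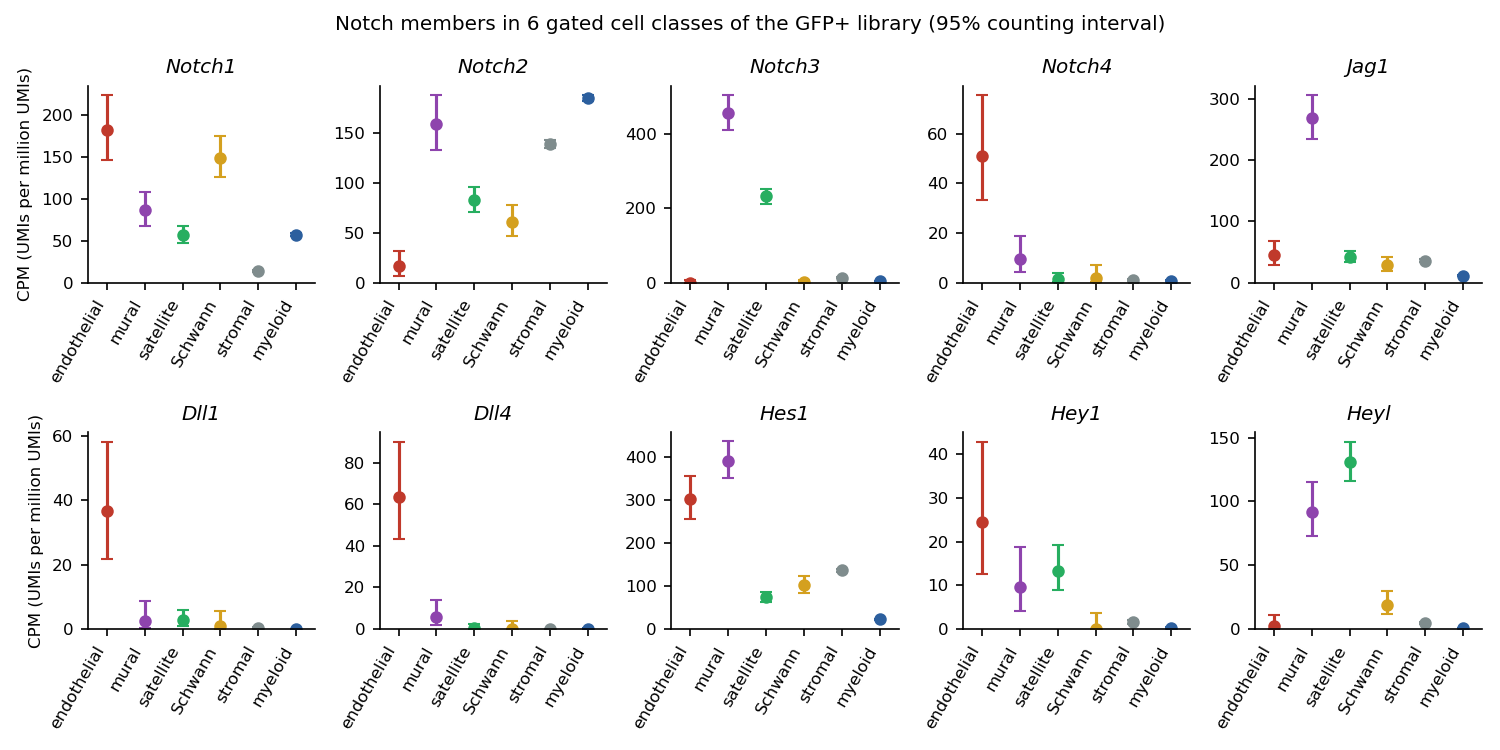
Level of each of the 10 genes in 6 cell classes of the GFP+ library, in CPM, on a linear axis that starts at 0 and differs between panels. Points are pooled class levels and bars are exact Poisson 95% intervals. Notch3 and Jag1 stand highest in mural cells, Notch4, Dll1 and Dll4 in endothelial cells, and Heyl in satellite cells.

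Among the receptors, Notch1 (ENSMUSG00000026923, chr2:26457902-26503822) is the most widely studied and takes part in both vessel and blood cell development. Its level was 181.9 CPM (146 to 224) in endothelial cells, 148.9 (126 to 175) in Schwann cells, 86.1 (67.4 to 108) in mural cells, 57.0 (55.5 to 58.6) in myeloid cells, 56.7 (47.1 to 67.7) in satellite cells and 13.4 (12.2 to 14.6) in stromal cells. The endothelial and Schwann levels could not be told apart by counting, with a log2 ratio of 0.29 (-0.11 to 0.68), and neither could those of myeloid and satellite cells. Stromal cells were lowest by a log2 ratio of 2.08 (1.79 to 2.37) to satellite cells. A single Schwann cell carried 17 of the 149 Schwann UMIs. After each cell was thinned at random to 2000 UMIs, a Notch1 UMI was found in 30.8% of endothelial cells (exact binomial 95% interval 20.8 to 42.2), 20.5% of Schwann cells and 3.45% of stromal cells, and unthinned in 50%, 47.3% and 8.32%.

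Notch2 (ENSMUSG00000027878, chr3:98013538-98150367), a receptor needed for several subsets of blood and myeloid cells, had the opposite order in vessels. It reached 185.4 CPM (183 to 188) in myeloid cells, 159.1 (133 to 188) in mural cells, 139.1 (135 to 143) in stromal cells, 82.6 (70.9 to 95.6) in satellite cells and 61.0 (46.6 to 78.3) in Schwann cells, and 16.3 (7.06 to 32.2) in endothelial cells from 8 UMIs. Myeloid and mural cells could not be told apart, with a log2 ratio of 0.22 (-0.02 to 0.48), nor could mural and stromal cells. The myeloid call was narrow at 2.02-fold, and a gate that gave a cell to the list with most UMIs took it to 1.90-fold. A single mural cell held 25 of the 133 mural UMIs. Thinned to 2000 UMIs, 31.8% of myeloid cells (30.9 to 32.7) and 0 of 78 endothelial cells held a Notch2 UMI. At that depth 0 of 78 cells allows a share of up to 4.62% of cells with a UMI (exact binomial upper bound), which says nothing of deeper reads. At full depth the shares were 65.8% and 7.69%.

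Notch3 (ENSMUSG00000038146, chr17:32120820-32166896), known as the receptor of vascular smooth muscle and pericytes and also present in satellite cells, had the widest range over the classes of the 4 receptors by these counts. Its level was 454.4 CPM (410 to 502) in mural cells and 231.1 (211 to 252) in satellite cells, with a log2 ratio of 0.98 (0.78 to 1.17) between them. It fell to 13.4 (12.2 to 14.6) in stromal cells, 3.16 (2.81 to 3.56) in myeloid cells and 2.00 (0.242 to 7.22) in Schwann cells, and no UMI was found among the 489314 of endothelial cells. Against the floor of 3 counts in endothelial cells, 6.13 CPM, mural cells were at least 74.1-fold higher and satellite cells at least 37.7-fold higher, while the exact intervals of these ratios begin lower, at 60.0-fold and 30.5-fold. A Notch3 UMI was found in 44.0% of mural cells (34.5 to 53.9), 37.1% of satellite cells (31.0 to 43.6) and 0.889% of myeloid cells after thinning, and in 72.5%, 77.6% and 2.07% before it. The satellite call, 2.44-fold, was 1.97-fold when the classes were gated on the other marker lists, a gate that left 22 satellite cells.

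Notch4 (ENSMUSG00000015468, chr17:34564286-34588543), a receptor known mainly from endothelium, was the sparsest receptor. It stood at 51.1 CPM (33.1 to 75.4) in endothelial cells, from 25 UMIs in 17 of 78 cells, and at 9.57 (4.13 to 18.9) in mural cells. All other classes lay between 0.707 and 2.00 CPM. Endothelial cells exceeded mural cells by a log2 ratio of 2.42 (1.22 to 3.78), and mural cells could not be told apart from Schwann cells, nor Schwann from satellite cells, nor satellite from stromal cells. The mural cells also carried the endothelial gate list at 328.9 CPM, 5.95% of its endothelial level. The part of such RNA in the mural Notch4 and Dll4 counts was not tested.

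**Figure D2:**
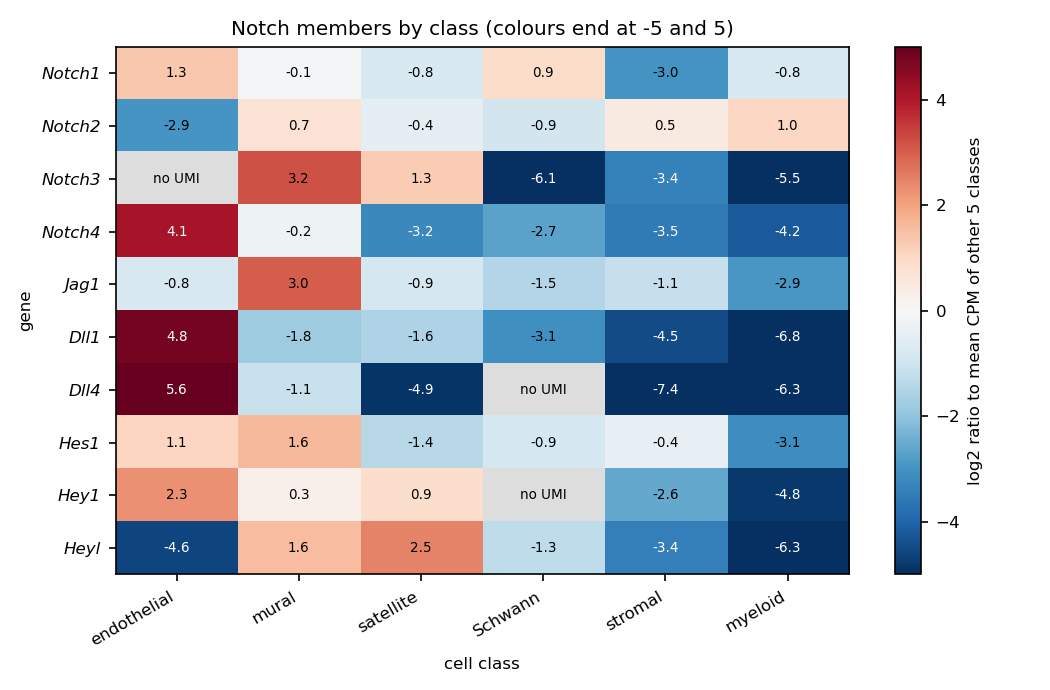
The log2 ratio of each gene's CPM in a class to the mean CPM of the other 5 classes, with red above and blue below that mean and colours ending at -5 and 5. Grey squares hold no UMI. Endothelial cells hold the largest positive ratios, Dll4, Dll1 and Notch4, and myeloid cells are below the mean for every gene but Notch2.

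The ligands divided between both vessel classes. Jag1 (ENSMUSG00000027276, chr2:137081451-137116520), the Jagged ligand that smooth muscle is known to need, was found at 269.1 CPM (235 to 307) in mural cells. The other classes followed at 45.0 (28.2 to 68.1) in endothelial, 42.4 (34.2 to 52.0) in satellite, 36.0 (34.1 to 38.0) in stromal, 29.0 (19.4 to 41.6) in Schwann and 11.2 (10.5 to 11.9) in myeloid cells. The mural level was 5.98-fold (3.86 to 9.74) above the endothelial one, and the next 3 neighbouring pairs in this order could not be told apart. In Schwann cells 12 of the 29 UMIs were in 1 cell. Thinned, 32.1% of mural cells (23.5 to 41.7) and 2.79% of myeloid cells had a Jag1 UMI, against 67.9% and 7.75% unthinned.

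Dll4 (ENSMUSG00000027314, chr2:119325784-119335666), the Delta ligand of sprouting and arterial endothelium, was found at 63.4 CPM (43.0 to 89.9) in endothelial cells, where 31 UMIs fell in 22 of 78 cells. Mural cells had 5 UMIs and 5.98 CPM, stromal cells 3 UMIs, satellite cells 1 and Schwann cells 0, and the 10011 myeloid cells had 16 UMIs and 0.180 CPM. The endothelial level was 10.6-fold (4.08 to 34.9) above the mural one and at least 21.1-fold above the floor of 3 counts in Schwann cells, with an exact interval that begins at 16.2-fold. Dll1 (ENSMUSG00000014773, chr17:15367354-15376932), a Delta ligand known from the differentiating muscle lineage, also had its highest level in endothelial cells, at 36.8 CPM (21.8 to 58.1) from 18 UMIs. Of these, 7 were in 1 cell. The satellite level was 2.77 CPM (1.02 to 6.02) from 6 UMIs, and the log2 ratio of endothelial to satellite cells was 3.73 (2.34 to 5.35). Thinned, Dll4 was found in 12.8% of endothelial cells (6.32 to 22.3) and in 0.0599% of myeloid cells, and Dll1 in 5.13% and 0.0599%, and unthinned the shares were 28.2% and 0.150% for Dll4 and 10.3% and 0.0699% for Dll1.

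Among the target genes, Hes1 (ENSMUSG00000022528, chr16:30065357-30067796), a repressor that answers to many signals beside Notch, was found in all classes. It stood at 391.1 CPM (350 to 436) in mural, 302.5 (256 to 355) in endothelial, 136.0 (132 to 140) in stromal, 101.9 (83.1 to 124) in Schwann, 73.8 (62.8 to 86.2) in satellite and 23.2 (22.2 to 24.2) in myeloid cells, and every neighbouring pair in this order was separated by its interval. The step from mural to endothelial cells was the smallest, a log2 ratio of 0.37 (0.09 to 0.66). The endothelial call, 2.08-fold, ended under 3 settings, at 1.70-fold in the lowest. Thinned, 44.0% of mural, 41.0% of endothelial and 5.07% of myeloid cells had a Hes1 UMI, against 75.2%, 64.1% and 12.7% unthinned.

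Heyl (ENSMUSG00000032744, chr4:123233556-123249870), a target described in satellite cells and in smooth muscle, was called high in the same 2 classes as Notch3, satellite and mural cells. The other classes had another order, since Schwann cells, with 2 Notch3 UMIs, were above stromal cells for Heyl by 4.20-fold (2.46 to 6.77). Heyl was found at 130.5 CPM (116 to 147) in satellite cells and 92.1 (72.7 to 115) in mural cells, 1.42-fold (1.10 to 1.85) apart, and then at 19.0 (11.4 to 29.7) in Schwann, 4.52 (3.85 to 5.27) in stromal, 2.04 in endothelial (1 UMI) and 0.639 (0.484 to 0.829) in myeloid cells. After thinning 25.3% of satellite cells (19.9 to 31.4), 17.4% of mural cells and 0.210% of myeloid cells had a Heyl UMI, and 57.0%, 36.7% and 0.430% before. Hey1 (ENSMUSG00000040289, chr3:8663359-8667038), a target known from endothelium, was sparse, at 24.5 CPM (12.7 to 42.8) in endothelial (12 UMIs), 13.4 (8.96 to 19.2) in satellite and 9.57 (4.13 to 18.9) in mural cells. Neither endothelial and satellite cells nor satellite and mural cells could be told apart. Schwann cells had no Hey1 UMI among 1000696, and endothelial cells were at least 8.18-fold above their floor of 3 counts, with an exact interval that begins at 5.68-fold. The endothelial Hey1 call ended with at least 5000 UMIs per cell and under a strict gate (at least 6 UMIs over at least 3 list genes and at least 4 times any other list), which left 7 and 8 UMIs, under the 10 required.

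Over the 10 genes, 23 of the 50 neighbouring pairs of classes had an interval of the log2 ratio that held 0. Endothelial cells were highest for 5 genes, mural cells for 3, and satellite and myeloid cells for 1 each.

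Cells with few UMIs did not always give the level of deep ones. In 14 of 60 gene and class pairs the intervals of cells with under 5000 UMIs and of cells with at least 5000 did not overlap. Mural Notch3 was 308.1 CPM (222 to 416) in the shallower cells and 482.9 (433 to 537) in the deeper ones, and mural Heyl 22.0 (4.54 to 64.3) and 105.7 (83.0 to 133). Endothelial Dll4 went the other way, at 148.2 (89.2 to 231) and 33.2 (17.2 to 58.1), as did satellite Hey1 at 61.1 and 10.3.

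Within classes, cells were split by further marker lists. A cell took the list with most UMIs, if this had at least 2 UMIs and at least 2 times the next list. Mural cells gave 73 smooth muscle cells (Myh11, Cnn1) and 27 pericytes (Kcnj8, Abcc9). Notch2 was 190.0 CPM (157 to 227) in smooth muscle and 59.8 (28.7 to 110) in pericytes, a log2 ratio of 1.67 (0.74 to 2.77), and Jag1 297.0 (256 to 343) and 191.3 (131 to 270), a log2 ratio of 0.63 (0.09 to 1.22). Hes1 was lower in smooth muscle, at 372.0 against 496.2 CPM, a log2 ratio of -0.42 (-0.78 to -0.04). The pericytes carried the myeloid genes outside the gate at 4005 CPM and the stromal ones at 3276 CPM, both above their mural ones at 2810 CPM, where smooth muscle had 2445, 4151 and 30319 CPM. The part of such RNA in the differences between these groups was not tested. The levels of Notch3, 466.2 and 358.7 CPM, and Heyl, 100.6 and 77.7 CPM, did not separate. All 5 mural Dll4 UMIs were in pericytes, which carried the endothelial gate list at 902.7 CPM against 178.8 CPM in smooth muscle, and whether that RNA accounts for them was not tested.

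Satellite cells were mostly on the Pax7 side, 223 cells marked by Pax7, Calcr, Chodl and Myf5. These held 500 of the 501 satellite Notch3 UMIs, at 248.7 CPM (227 to 271), and 282 of the 283 Heyl UMIs, at 140.3 CPM (124 to 158). A set of 10 cells on the Myog side lies under the 20 cells asked of a subclass and is named here after its values were seen. It had 0 Notch3 and 0 Heyl UMIs among 117201, so Pax7-side cells were at least 9.72-fold and 5.48-fold higher than its floor of 3 counts, with exact intervals that begin at 7.87-fold and 4.43-fold. Notch1 and Notch2 had 1 UMI each there, and Hes1 2. These 10 cells carried muscle fibre genes (Acta1, Ckm, Myh4, Tnnt3, Pvalb) at 80230 CPM, against 566.1 CPM on the Pax7 side. They also carried the mural genes outside the gate (Acta2, Tagln, Tpm2 and their list) at 14889 CPM, against 763.5 CPM on the Pax7 side, while the mural gate list was at 42.7 CPM. The part of such RNA in the low Notch levels was not tested.

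**Figure D3:**
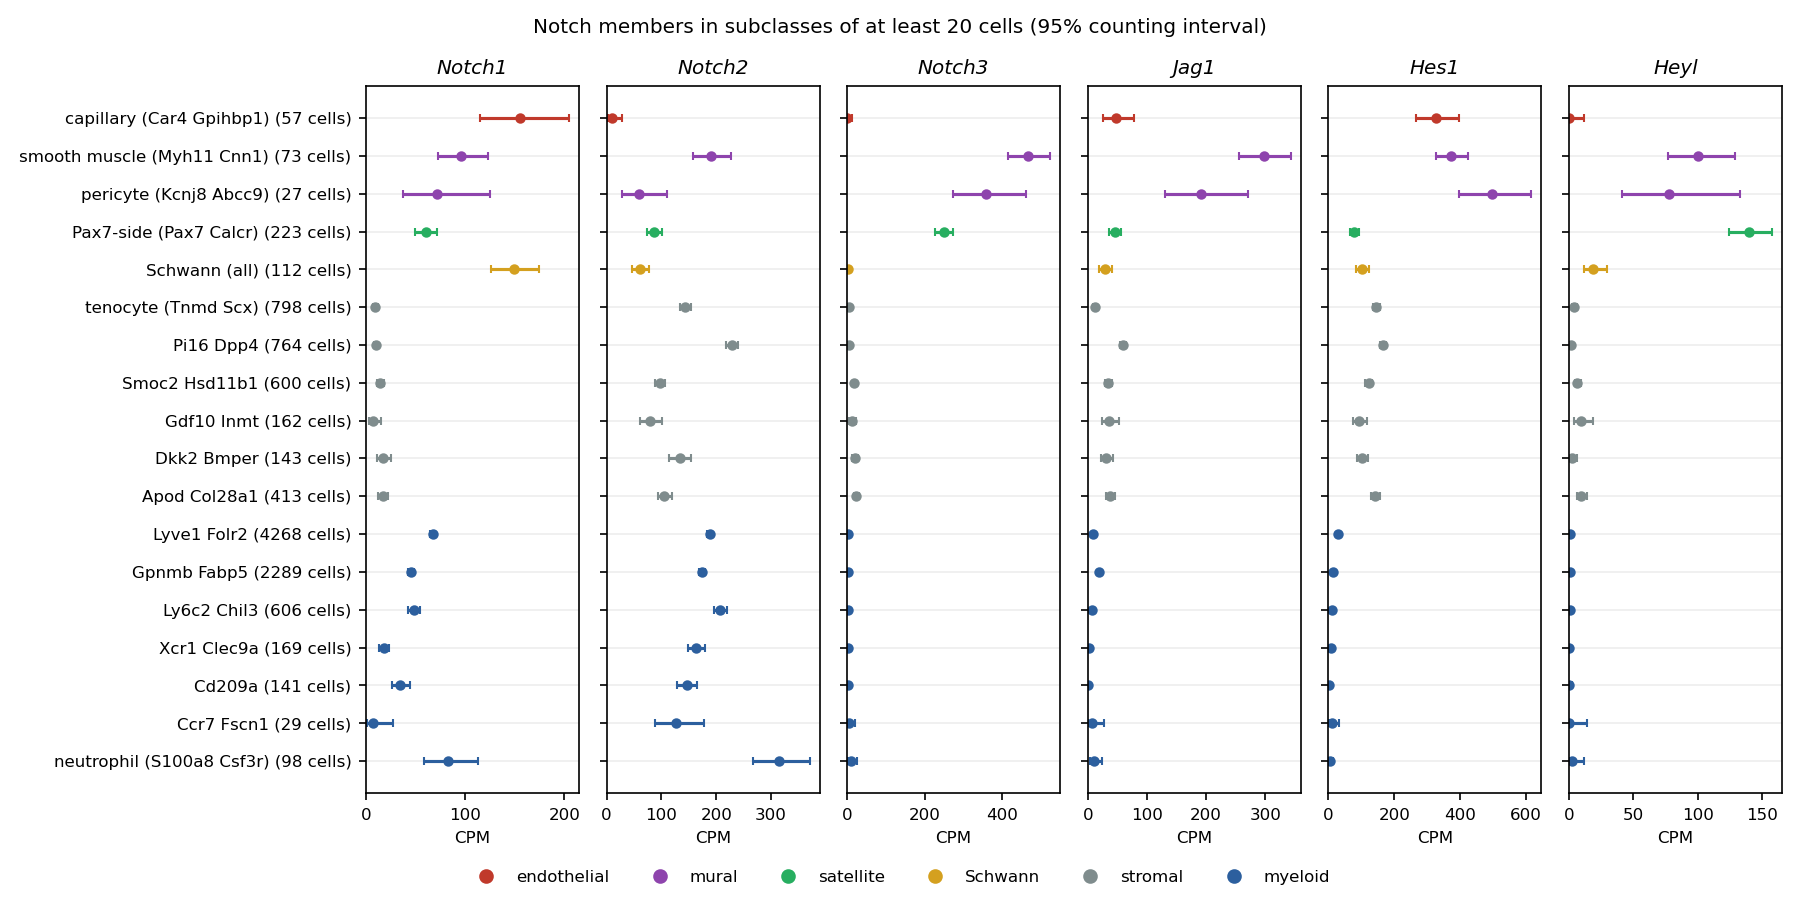
Levels in CPM of Notch1, Notch2, Notch3, Jag1, Hes1 and Heyl in subclasses of at least 20 cells, with exact Poisson 95% intervals, coloured by class, each panel on its own linear axis from 0. Notch3 is highest in smooth muscle, pericytes and Pax7-side satellite cells, and Notch2 is found in all groups, lowest in capillary cells.

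Endothelial cells were mainly capillary (Car4, Gpihbp1, 57 cells), with 6 arterial and 6 venous cells, too few to describe. Capillary cells held 25 of the 31 Dll4 UMIs and 23 of the 25 Notch4 UMIs, at 79.0 CPM (51.1 to 117) and 72.7 CPM (46.1 to 109), with Notch1 at 154.9 (115 to 205) and Hes1 at 325.6 (266 to 395).

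Among stromal cells, Jag1 was 59.1 CPM (53.8 to 64.7) in the Pi16 Dpp4 group and 12.0 (9.39 to 15.2) in tenocytes (Tnmd, Scx), a log2 ratio of 2.30 (1.93 to 2.68), and lay between 31.6 and 37.2 CPM in the other 4 groups. Notch2 was also higher in Pi16 Dpp4 cells, 228.8 against 143.2 CPM in tenocytes, a log2 ratio of 0.68 (0.56 to 0.80). Notch3 was 23.3 CPM (17.9 to 29.9) in Apod Col28a1 cells and 5.92 (4.13 to 8.24) in tenocytes, a log2 ratio of 1.98 (1.35 to 2.62). Notch3 in Dkk2 Bmper cells, 19.9 CPM (13.1 to 28.9), and in Smoc2 Hsd11b1 cells, 18.1 (14.4 to 22.6), lay within the interval of the Apod Col28a1 group, and Gdf10 Inmt cells had 11.8 (5.67 to 21.8) and Pi16 Dpp4 cells 5.73 (4.18 to 7.67). Markers of other cell types differed between these groups. Tenocytes had the mural gate genes at 319.5 CPM against 27.6 in Pi16 Dpp4 cells, the satellite gate genes at 174.0 against 10.3, the myeloid genes outside the gate at 2291 against 1198 and the erythroid genes at 1341 against 442.5. Pi16 Dpp4 cells had the endothelial genes outside the gate at 355.7 CPM against 135.4 in tenocytes, and T and NK cell genes (Cd3e, Nkg7 and their list) at 54.4 against 1.86. Apod Col28a1 cells had the Schwann gate genes at 63.9 CPM against 28.4 in tenocytes, and the endothelial genes outside the gate at 244.6 against 135.4. They had the mural gate genes at 62.0 against 319.5 CPM and the satellite ones at 32.7 against 174.0. The part of these markers in the stromal differences was not tested.

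In myeloid cells Hes1 was 30.7 CPM (29.0 to 32.5) in the Lyve1 Folr2 group, genes known from resident macrophages, and 12.2 (9.48 to 15.5) in the Ly6c2 Chil3 group, a log2 ratio of 1.33 (0.97 to 1.71). Jag1 had its highest level in the Gpnmb Fabp5 group, at 18.8 CPM (17.0 to 20.7) against 9.11 (8.19 to 10.1) in the Lyve1 Folr2 group. The intervals of Ccr7 Fscn1 cells (0.907 to 27.1) and neutrophils (3.46 to 24.8) hold 18.8 CPM. Myeloid Jag1 was 20.9 CPM (18.3 to 23.8) in cells with under 5000 UMIs and 9.82 (9.14 to 10.5) in deeper ones. Gpnmb Fabp5 cells had a median of 7034 UMIs, against 8765.5 in Lyve1 Folr2 cells. They had erythroid genes at 1256 against 438.3 CPM and Schwann genes outside the gate at 196.3 against 512.2. The part of depth or such RNA in Jag1 was not tested. Notch1 was 67.4 CPM in Lyve1 Folr2 cells and 17.7 in Xcr1 Clec9a cells, markers of cross-presenting dendritic cells, a log2 ratio of 1.93 (1.53 to 2.36). For Notch4, the 169 Xcr1 Clec9a cells held 30 of the 63 myeloid UMIs, in 23 cells, at 10.4 CPM (7.04 to 14.9), and the 4268 Lyve1 Folr2 cells held 9, at 0.233 CPM. The median depth was 17086 UMIs per cell in the former and 8765.5 in the latter. The log2 ratio of Lyve1 Folr2 to Xcr1 Clec9a cells was -5.48 (-6.74 to -4.37). Cd209a cells, with a median of 11843 UMIs per cell, had 0 Notch4 UMIs. Thinned to 2000 UMIs, 0.592% of Xcr1 Clec9a cells (0.0150 to 3.25) and 0.117% of Lyve1 Folr2 cells (0.0380 to 0.273) held a Notch4 UMI. These intervals overlap, and the shares rest on 1 and 5 cells. Other cell types' markers moved with the myeloid groups too. In Lyve1 Folr2 cells the Schwann genes outside the gate were at 512.2 CPM, the endothelial ones at 415.1, the stromal gate genes at 91.3 and the erythroid genes at 438.3. The same lists were at 91.3, 220.9, 48.4 and 11.9 CPM in Ly6c2 Chil3 cells and at 90.4, 17.0, 12.9 and 6.95 CPM in Xcr1 Clec9a cells. Their part in the differences in Hes1 and Notch1 was not tested. Notch2 was 315.1 CPM (266 to 370) in neutrophils (S100a8, Csf3r) and between 127.3 and 207.7 CPM in the other myeloid groups. The neutrophil group had a median of 3182 UMIs per cell, erythroid genes at 6623 CPM and muscle fibre genes at 1424 CPM, against at most 1256 and 145.2 CPM in the other myeloid groups. Myeloid Notch2 itself was 239.7 CPM (231 to 249) in cells with under 5000 UMIs and 177.5 (175 to 180) in deeper ones, and the part of depth or foreign RNA in the neutrophil level was not tested.

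Genes whose level was most like that of a member were ranked by Pearson's correlation of log2(CPM + 10) over 16 subclasses of at least 50 cells, among 11305 genes with at least 500 UMIs. The subclasses share 1 library and the rank carries no p-value. Among them Notch3 was above 23.3 CPM only in smooth muscle (466.2) and Pax7-side cells (248.7), and capillary cells alone stood for endothelium. The correlations of Notch3, Heyl and Notch4 therefore rest on 1 or 2 groups and restate the class levels. Hey1 was above 4.73 CPM only in capillary cells (19.0), Pax7-side cells (14.4) and smooth muscle (9.58), so its correlations rest on these groups too. Jag1 was 297.0 CPM in smooth muscle and at most 59.1 CPM in any other of these subclasses. Heyl was the gene most like Notch3 (r = 0.91), followed by Thsd4 (0.91) and Acta2 (0.89), a smooth muscle actin, and Notch3 was the third most like Heyl after Dmd and Ipo7 (both 0.92). Notch4 was most like Hmg20b, Adgrl4 and Ptprb (all 0.94), of which the last 2 are in the endothelial gate list. Jag1 was most like C2cd2 (0.95), Oaz2 and Rab12 (both 0.92), and Hes1 most like Lzts2, Gna11 (both 0.97) and Cavin1 (0.96). Hey1 was most like Cdh13, Tspan12 and Id1 (all 0.93), Notch1 like Arhgef2 (0.93), Fiz1 (0.90) and Acin1 (0.89), and Notch2 like Bcl6 (0.91), Mir22hg (0.89) and Gsdme (0.87).

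Notch3 and Heyl were also read together in single cells. Among satellite cells thinned to 2000 UMIs, 29 of 88 cells with a Notch3 UMI also had a Heyl UMI (33.0%, 23.3 to 43.8), and 31 of 149 without one did (20.8%, 14.6 to 28.2). In mural cells the counts were 10 of 48 (20.8%, 10.5 to 35.0) and 9 of 61 (14.8%, 6.98 to 26.2). For Hes1 in mural cells they were 24 of 48 and 24 of 61, and for Hes1 with or without Notch1 in endothelial cells 10 of 24 and 22 of 54. The exact conditional odds ratio of a Heyl UMI in satellite cells with against without a Notch3 UMI was 1.87 (0.985 to 3.54), and the 10 cells of the Myog side are among those without. In all 6 pairs read with Notch3 as the first gene the share was higher in cells with a Notch3 UMI, and the odds ratio's interval held 1 in each. These intervals are wide and cover counting error only, so they neither show a link between cells nor show that there is none.

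The other genes of the pathway were taken from 7 lists of 49 genes, 42 of which had enough UMIs. Endothelial cells had 7 called high and 11 low of the 42, where 7.5% and 31.4% of all genes were. Mural cells had 4 and 11 (6.84% and 26.6% of all genes), satellite cells 2 and 18 (6.59% and 36.6%), Schwann cells 4 and 7 (11.4% and 25.1%), stromal cells 2 and 6 (11.2% and 16.9%) and myeloid cells 6 and 7 (15% and 29.3%). Several of these counts lie near the share of all genes, and nothing particular to the pathway is read from them. The median ratio to the other classes was 0.905 in endothelial cells (0.872 over all genes), 0.781 in mural (0.833), 0.610 in satellite (0.701), 1.16 in Schwann (1.02), 0.768 in stromal (0.836) and 0.888 in myeloid cells (0.776). Among further ligands, Jag2 stood at 57.2 CPM in endothelial cells and at most 3.59 elsewhere, and Dlk1, a ligand-like protein without the usual receptor-binding part, at 41.9 CPM in mural cells and 5.60 in stromal cells. The fringe enzymes, which add sugars to the receptors and change which ligands they answer to, were called high in endothelial cells for Mfng, at 51.1 CPM, and Lfng, at 36.8 CPM, and in myeloid cells for Lfng, at 34.8 CPM, while satellite and Schwann cells had at most 1 UMI of either.

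Of the proteases, Adam10, which makes the cut that follows ligand binding, was called high in endothelial cells at 222.8 CPM, and Aph1c, a part of gamma-secretase, in myeloid cells at 87.5 CPM. Epn2, an adaptor used in endocytosis, was called high in mural cells at 166.2 CPM, and Mib2, which tags ligands with ubiquitin, in Schwann cells at 11.0 CPM. In the nuclear complex, Rbpj was 1091 CPM in myeloid cells, 6.88-fold the mean of the other classes, and the coactivator Maml3 464.7 CPM in Schwann cells, 3.82-fold. Nrarp, a feedback inhibitor that is itself a target, was 106.4 CPM in mural and 53.1 CPM in endothelial cells and at most 3.23 CPM elsewhere. Dtx4 was 83.9 CPM in satellite cells, and Hes2 1.41 CPM in myeloid cells. That Hes2 level lies below the floor of 3 counts in endothelial (6.13 CPM), mural (3.59) and Schwann cells (3.00), which could not resolve it.

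**Figure D4:**
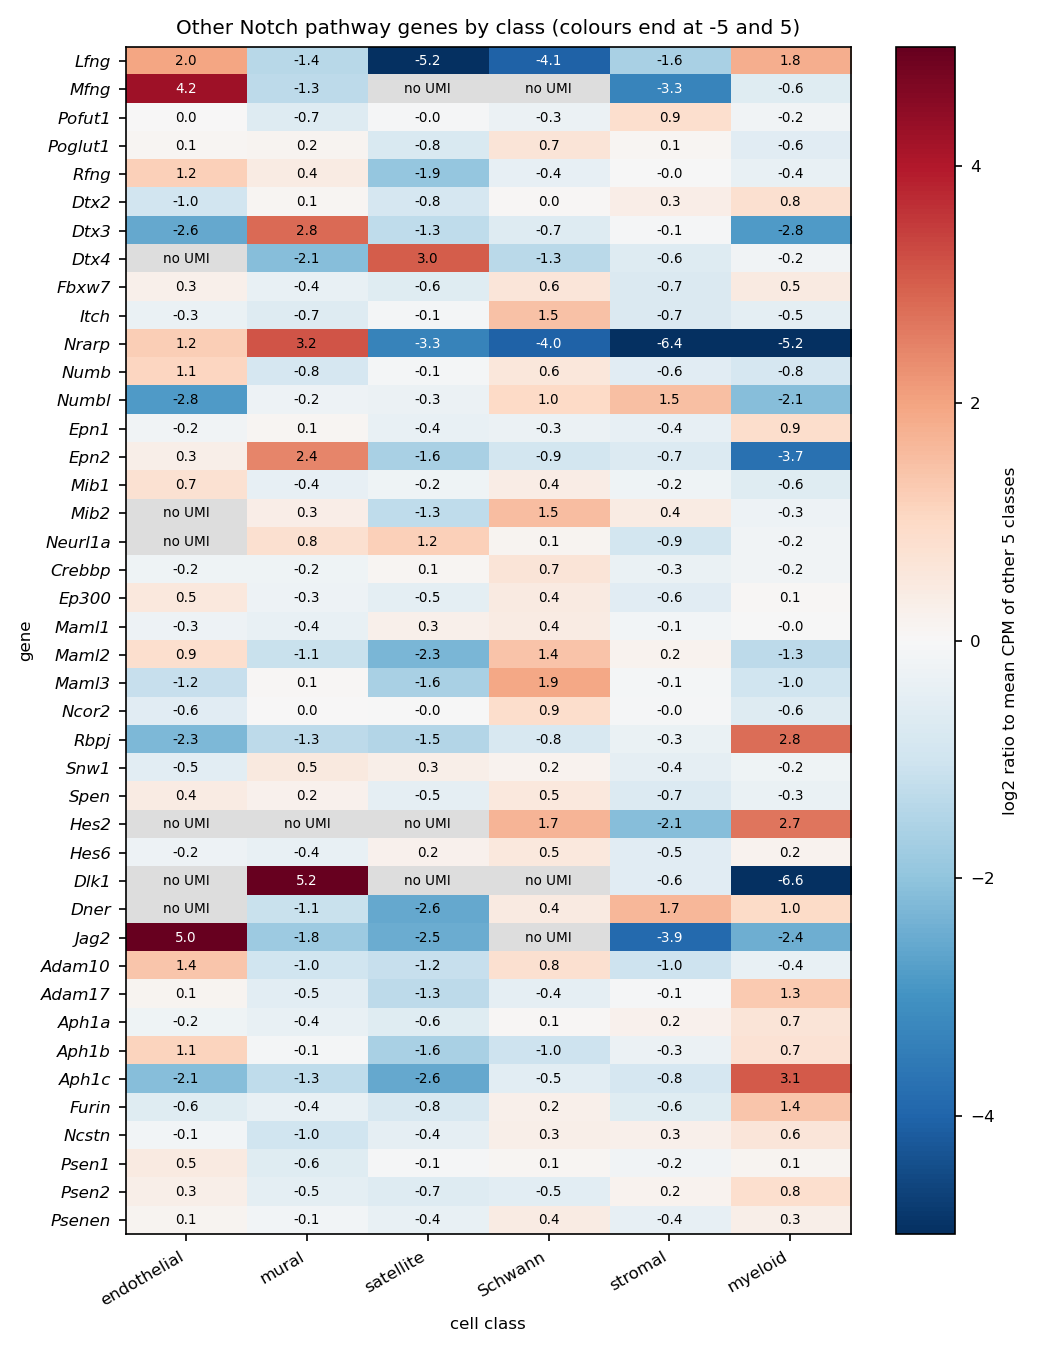
The log2 ratio of 42 other pathway genes to the mean CPM of the other 5 classes, ordered by list, with red above and blue below and colours ending at -5 and 5. Grey squares hold no UMI. Among the largest ratios are Dlk1 and Nrarp in mural, Jag2 and Mfng in endothelial, Dtx4 in satellite and Aph1c and Rbpj in myeloid cells.

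The letters TGGGAA, the core that RBPJ binds, were searched on both strands in promoters of 250 bases before to 50 after each gene start, from RefSeq on GRCm38.p6. The table held 8 promoters of 7 members (Notch1 to Notch4, Jag1, Dll1 and Dll4), and 0 of the 8 had the core, where 25.6% of 32851 promoters of that length did. It held no promoter of the target genes Hes1, Hey1 and Heyl. With only 8 promoters, no difference from that share is read from the 0. Of the 52 promoters of other pathway genes, 14 had it (26.9%), near the share of all promoters. Below are the 250 bases before the start for the most mural receptor and the most endothelial ligand, neither with the core, and for Lfng, with 2 cores in capitals, the first on the reverse strand.
Notch3, chr17:32166891-32167140, minus strand: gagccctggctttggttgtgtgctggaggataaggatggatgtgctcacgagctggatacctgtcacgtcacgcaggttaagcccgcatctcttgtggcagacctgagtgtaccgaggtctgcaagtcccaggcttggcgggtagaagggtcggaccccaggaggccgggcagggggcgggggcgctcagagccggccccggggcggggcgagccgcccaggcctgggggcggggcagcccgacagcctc
Dll4, chr2:119325534-119325783, plus strand: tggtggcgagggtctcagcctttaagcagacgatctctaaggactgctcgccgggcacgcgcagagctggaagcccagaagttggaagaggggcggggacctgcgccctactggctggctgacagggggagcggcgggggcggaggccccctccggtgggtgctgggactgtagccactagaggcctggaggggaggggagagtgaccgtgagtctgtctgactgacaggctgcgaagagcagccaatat
Lfng, chr5:140607091-140607340, plus strand: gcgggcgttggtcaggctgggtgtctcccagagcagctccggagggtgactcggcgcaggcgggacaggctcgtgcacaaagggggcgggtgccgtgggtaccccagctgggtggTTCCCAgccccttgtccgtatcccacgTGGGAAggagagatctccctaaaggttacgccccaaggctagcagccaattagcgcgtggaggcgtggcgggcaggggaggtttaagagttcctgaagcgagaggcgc

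Markers of other cell types were also read in each class, and their part in the levels above was not tested beyond the subtraction given here. Myeloid genes outside the gate (Lyz2, C1qa, C1qb, Tyrobp, Fcer1g, Ctss) reached 13.6% of their myeloid level in mural cells, 9.38% in stromal, 5.89% in Schwann, 2.69% in endothelial and 0.952% in satellite cells. Stromal genes reached 8.44% of their stromal level in mural cells and 8.74% in Schwann cells. Mural and satellite cells share high Notch3 and Heyl. The satellite genes outside the gate stood in mural cells at 288.2 CPM, 24.7% of their satellite level. Of these 6 genes Musk, Vgll2 and Mymk were at 0 there, and Mymk was at 0 in satellite cells too. The satellite gate list was at 8.37 CPM in mural cells, 0.423% of its own level, with Pax7 and Myf5 at 0, and the mural gate list at 11.5 CPM in satellite cells, 0.162% of its own level. The mural genes outside the gate stood in satellite cells at 1528 CPM, 6.35% of their mural level. The share of UMIs taken as from other cells was read from the myeloid genes outside the gate alone. In myeloid cells it was read from Col1a1, Col1a2, Col3a1 and Dcn. It was 20.5% in mural, 14.1% in stromal, 8.87% in Schwann, 4.84% in myeloid, 4.06% in endothelial and 1.43% in satellite cells. Other lists did not enter it, and satellite cells carried the stromal gate list at 480.1 CPM, 7.77% of its stromal level. After its share of the pooled library was subtracted from each class, mural cells still had 4 members called high and satellite cells 2, and endothelial cells had 3 in place of 4. The pooled library held Notch3 at 17.4 CPM, Jag1 at 24.0, Hes1 at 64.8 and Heyl at 5.94. These lie far below the mural levels, and for Notch3 and Heyl the satellite ones, so the subtraction could hardly change those calls. RNA passed between mural, satellite and endothelial cells was not tested by it. Without the cells whose barcodes occur in both libraries the count of high calls was again 11.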

How the data were processed

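The authors made the deposited counts, unnormalized UMIs per gene and barcode, with Cell Ranger (7.1.0 in the submitters' notes, 8.0.1 in the matrix header) and 3' tags. Barcodes had passed its cell calling. The study names GRCm39 and GRCm38, the notes mm10, and the matrix has no coordinates, so positions are whole genes of RefSeq GRCm38.p6. The study's DoubletFinder and DecontX were not applied. Doublets were limited only by the 2-times rule of the gate, and removal by Scrublet score and subtraction of RNA of other cells were alternatives.

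UMIs were summed per class and divided by all UMIs of the class (CPM), with exact Poisson intervals for levels, exact binomial (Clopper-Pearson) intervals for shares and exact conditional intervals for ratios, all at 95%. UMIs remove PCR copies, but the intervals leave out variation between animals. Cells were thinned to 2000 UMIs, which left out none. With 1 library there was no test. The members, lists and alternatives were chosen with earlier results of these data known. The text names the 10 members, the pathway genes called high in any class with the 2 highest ratios per list, and the 3 genes most like each member. Other per-sample columns left unused numbered 0. The gate and calls were tested on simulated data. Scripts ran in Python 3.11.15 with scanpy 1.11.5, pandas 2.3.3, scipy 1.17.1 and numpy 2.4.6. The GFP- library entered only through its barcode sequences.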

Additional observations from a re-analysis of the deposited data

How the results depend on the processing

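The 11 calls of a high member became 5 under a 4-fold rule, and ran from 9 with at least 5000 UMIs per cell to 13 with no minimum UMI count per gene over the other alternatives. Of 31 calls with a value under an alternative, 25 stayed past 2-fold under each of up to 9 settings, 6 fell short under at least 1, and 0 changed direction. The 6 were high Notch2 in myeloid cells (lowest 1.90-fold), high Notch3 in satellite cells (1.97-fold), high Hes1 in endothelial cells (1.70-fold), low Hes1 in satellite cells (0.510-fold), low Jag1 in stromal cells (0.622-fold) and low Heyl in Schwann cells (0.601-fold). The cause was not tested. High Hey1 in endothelial cells stayed past 2-fold but had 7 UMIs with at least 5000 UMIs per cell and 8 under the strict gate, under the 10 that a call needs. Of 500 log2 ratios under alternatives, 119 lay outside the main 95% interval, 28 of these where the gate used the other marker lists. Shares of cells depend on depth by construction, and 77 of 120 left the interval without thinning or at 1000 UMIs. Scrublet removed 2698 barcodes, of which 305 had at least 5000 UMIs. Endothelial cells limit the depth, since 3 counts there are 6.13 CPM. No paired analysis was possible because counts of 1 library were analysed.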
